A study of Rattus norvegicus with 30 samples.

Results

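Microglia from the contralateral hemisphere, the side of the brain opposite the stroke, were compared between day 14 and day 3 after a temporary block of the middle cerebral artery in 12-month-old rats. The comparison used 6 of the 30 arrays of the series, chosen by their titles and hemisphere label: 3 contralateral day 14 arrays and 3 contralateral day 3 arrays. The question it addresses is how far the hemisphere remote from the injury had moved away from its early state by the later time, and it was therefore read against 3 arrays of 12-month sham rats. Further contrasts of day 14 with day 3 came from the ipsilateral, injured hemisphere at 12 months and, in rats aged 3 months with the same occlusion, from the contralateral side, with 3 arrays per day in each.

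All animals were male, and the occlusion lasted 75 min under isoflurane. The strain is named in conflicting ways: the sample characteristics say Wistar Kyoto, and the protocols say spontaneously hypertensive rats. Neither the isolation method nor the hemisphere of the sham cells is stated in the labels. The 6 arrays came from 6 animals by their sample codes, whereas the labels do not say whether the sham arrays came from separate rats. P-values against sham use a spread between arrays pooled over 10 groups, which may not stand for the spread between sham rats. The first field of the code took 1 value on day 3 and 2 other values on day 14, none of them shared, and day 14 replicate 1 differed in it from replicates 2 and 3. What the field stands for is not given, and it cannot be told apart from the day.

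Microglia are the resident macrophages of the brain. In the healthy adult brain they are long-lived and divide rarely, and after injury they can re-enter the cell cycle. Cells that divide copy their DNA in S phase and then separate the copies in mitosis, and many of the genes for these steps are transcribed only in cycling cells. Sterol synthesis, the pathway that ends in cholesterol, is regulated through its own product by the SREBP transcription factors and their partner proteins INSIG and SCAP. Expression is given below as the deposited log2 value of a gene's probe set, and a change is day 14 minus day 3 on that scale, where 1 unit is a factor of 2 in signal. Such values compare 1 gene between arrays and not different genes with each other.

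The defining genes of microglia that the arrays measured, Tmem119, P2ry12, Cx3cr1, Csf1r, Sall1 and Aif1, lay above the 30th percentile of their array on all 6 arrays. The array medians of the series ran from 5.06 to 5.24. The 2 days' arrays correlated with each other at 0.9887 to 0.9937, against 0.9912 to 0.9953 among the day 14 arrays and 0.9936 to 0.9947 among the day 3 arrays (Pearson's r across probe sets).

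On day 14, 22 of 26 mitosis genes, 12 of 27 S phase genes and 74 genes on neither list were called lower than on day 3 in the contralateral hemisphere, and 5 of 19 sterol synthesis genes were among those called higher. Of 11675 genes tested, 124 were called at an adjusted p under 0.05 (limma with Benjamini-Hochberg adjustment), which is 1.06% of all genes. Of these, 108 fell (0.925%) and 16 rose (0.137%), and 1141 genes had an unadjusted p under 0.05. A change of at least 2-fold was seen in 19 of the genes that fell and in 1 of those that rose. The fitted falls ran from -0.37 to -2.42 and the rises from 0.32 to 1.19, while the median over all genes tested was -0.01. The 3 day 14 arrays did not overlap the 3 day 3 arrays for any of the 108 genes that fell and for 15 of the 16 that rose, the exception being Slc10a1. Over all genes tested, 16.3% had arrays that did not overlap. Leaving out 1 array at a time gave 58 to 131 called genes. There were 58 without day 3 replicate 3, 74 without day 3 replicate 1 and 77 without day 14 replicate 2. The count of falls was 53 to 119 in these fits and that of rises 5 to 14. Rises numbered 8 after centring arrays on their medians (109 falls), 35 with the 15 arrays of 12-month rats (122 falls) and 81 with array weights (197 falls).

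Mitosis genes made the clearest group. Of 30 listed genes 26 were tested, 22 fell, none rose and 4 were not called, with a median change of -0.89. Without each of the 6 arrays in turn, 16 to 21 of the 26 were called lower. Top2a, the topoisomerase that untangles DNA for chromosome condensation, read 4.77, 4.55 and 4.62 on the day 14 arrays. On the day 3 arrays it read 7.19, 6.66 and 7.36, and on the sham arrays 4.73, 4.88 and 4.95. All day 14 arrays thus lay at or near the sham range and far below every day 3 array, of which replicate 2 was the lowest. The change was -2.42 ± 0.20 (SE, 3 arrays per day, limma adjusted p = 3.3e-09), a day 14 signal of 0.186 times that on day 3.

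Tpx2, which activates Aurora A kinase on the spindle, averaged 4.35 ± 0.07 on day 14 and 6.26 ± 0.08 on day 3 (SD, n = 3 arrays each), and 4.54 ± 0.06 in sham. Its change was -1.91 ± 0.14 (SE, limma adjusted p = 9.3e-10). Cdk1, the kinase that drives entry into mitosis, read 3.92, 3.77 and 3.75 on day 14, against 5.34, 5.30 and 5.56 on day 3. The day 14 and the sham arrays of Cdk1 all lay at or below the 30th percentile of their array, so its fall of 1.59 ± 0.16 as fitted is given as at least 1.23 (limma adjusted p = 2.3e-07). Ndc80, which ties chromosomes to spindle microtubules, changed by -1.40 ± 0.13, Plk1, a kinase of mitotic entry, by -1.31 ± 0.13 and Prc1, which bundles the central spindle, by -1.29 ± 0.16. The spindle checkpoint kinase Bub1b fell by at least 0.85, and Ccnb2, a cyclin partner of Cdk1, changed by -1.18 ± 0.17. The members not called were Ttk (-0.34), Ube2c (-0.29), Cks2 (-0.11) and Aurka (0.18).

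The replication genes that were called also fell. Of 27 S phase genes tested, 12 fell, none rose and 15 were not called, with a median of -0.41, and 5 to 10 of them were called lower when 1 array was left out. Rrm2, a subunit of the enzyme that makes deoxynucleotides, read 4.73, 4.63 and 4.45 on day 14 and 6.46, 5.86 and 6.61 on day 3, with 4.56, 4.48 and 4.51 in sham. The day 14 arrays overlapped the sham arrays and none reached the lowest day 3 array. Rrm2 changed by -1.71 ± 0.19 (SE, limma adjusted p = 9.1e-07). Gins1, a part of the replicative helicase, changed by -1.10 ± 0.15. The helicase subunits Mcm6 and Mcm5 changed by -0.86 ± 0.14 and -0.83 ± 0.15. The helicase subunit Mcm2 (-0.54 ± 0.15, adjusted p = 0.075) was not called, nor was Pcna, the sliding clamp of the replication fork (0.24).

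**Figure D1:**
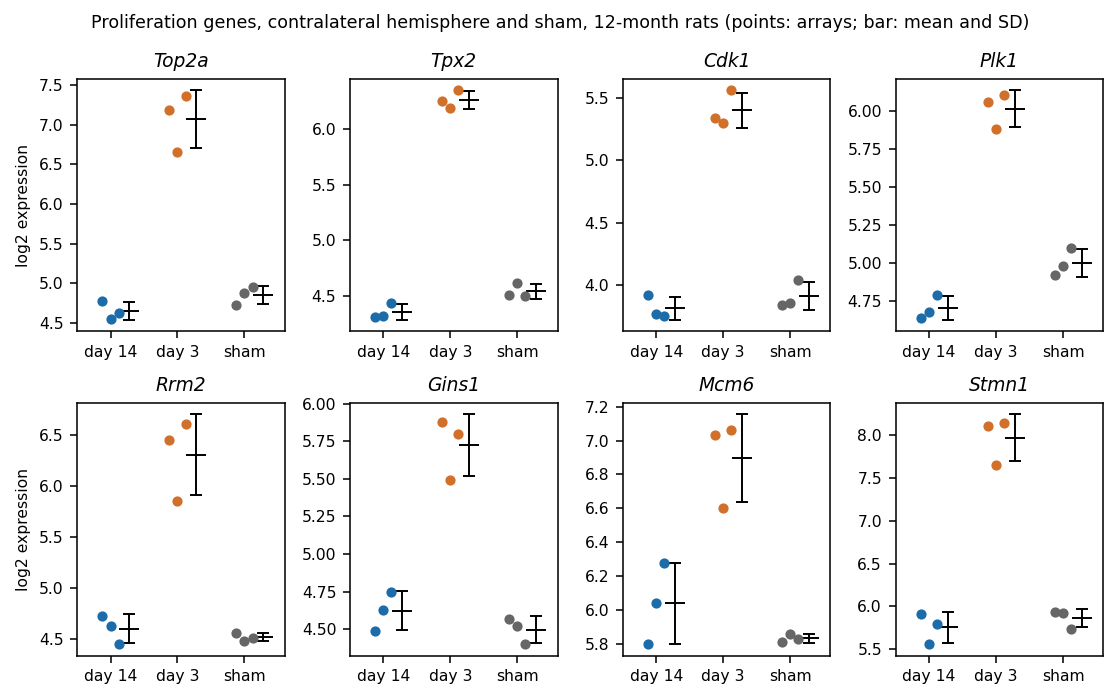
Log2 expression (vertical axes) of 8 proliferation genes on the contralateral day 14, contralateral day 3 and sham arrays of 12-month rats. Points are single arrays and the bars show the mean and SD of 3 arrays; in each panel the day 14 points lie below all day 3 points.

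Of the 108 genes that fell, 34 were on the S phase or mitosis list and 74 on neither. Stmn1, which destabilises microtubules, read 5.91, 5.56 and 5.80 on day 14, 8.11, 7.65 and 8.14 on day 3, and 5.93, 5.92 and 5.74 in sham. Its change of -2.21 ± 0.25 (SE, limma adjusted p = 1.4e-06) was exceeded in size only by that of Top2a among the called genes. Pttg1, or securin, changed by -1.37 ± 0.16. Pclaf, which binds the sliding clamp, changed by -1.22 ± 0.20, and the mitotic kinase Pbk fell by at least 0.96. Plp2, a membrane protein, changed by -1.24 ± 0.32 and Tagln2, an actin-binding protein, by -1.14 ± 0.27, and the call was lost in 9 and 5 of 18 alternatives. Dut, Gmnn, Cdkn2c, E2f7, Lmnb1 and Ezh2 also fell and are named here after their values were seen. Among all 108, 23 lay at or below the 30th percentile on every day 14 array. Melk, Cenpi and Kif20b lay there on both days, so no fold is given for them.

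A few genes that fell have signalling or immune roles, among them Hbegf, which was also picked after its values were seen. Cd14, the co-receptor that presents lipopolysaccharide to Tlr4, read 6.46, 6.67 and 6.71 on day 14, 7.54, 7.22 and 7.65 on day 3, and 6.37, 6.63 and 6.61 in sham. Its change was -0.86 ± 0.21 (SE, limma adjusted p = 0.039). The growth factor Hbegf changed by -0.76 ± 0.17 and the cytokine Lif by -0.73 ± 0.17. C1qc, a chain of the complement component that starts the classical pathway, read 11.75, 11.81 and 11.92 on day 14, against 12.29, 12.08 and 12.22 on day 3 and 12.19, 12.11 and 12.04 in sham. It was thus lower on day 14 than in any day 3 array, and also below the sham arrays, though the day 14 difference from sham, -0.29, was not called (adjusted p = 0.47). Cspg4, a marker of oligodendrocyte precursors, changed by -0.42 ± 0.11 (adjusted p = 0.046). Pdgfra, the other defining marker of those precursors that was tested, changed by -0.15 ± 0.08 (adjusted p = 0.60), and the mean level of the precursor list was 5.57 to 5.64 on day 14, 5.71 to 5.78 on day 3 and 5.56 to 5.73 in sham. The part of such cells in the result was not tested. Of the 18 alternatives, the call was lost in 7 for Cd14, in 6 each for Lif and C1qc, and in 8 for Cspg4.

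The promoters of the genes that fell are shown because many of them fell together and many cell cycle genes are known to share motifs. Each window runs 250 bases before to 50 after the start of the gene, from RefSeq on GRCr8, and was matched by symbol for 91 of the 108 genes. The motifs were searched on both strands: CHR as TTTGAA, the CCAAT box as CCAAT, the E2F site as TTTGGCGC and the sterol response core as TCACNCCAC. CHR elements and CCAAT boxes are known from promoters of mitotic genes, and E2F sites from those of replication genes. Top2a lies at chr10:84473044-84473343 on the minus strand, Ccnb2 at chr8:79981609-79981908 on the minus strand, Cdk1 at chr20:19265043-19265342 on the plus strand and Mcm6 at chr13:42404303-42404602 on the minus strand. Capitals mark a match to CHR, CCAAT or E2F, in either orientation.
Top2a promoter: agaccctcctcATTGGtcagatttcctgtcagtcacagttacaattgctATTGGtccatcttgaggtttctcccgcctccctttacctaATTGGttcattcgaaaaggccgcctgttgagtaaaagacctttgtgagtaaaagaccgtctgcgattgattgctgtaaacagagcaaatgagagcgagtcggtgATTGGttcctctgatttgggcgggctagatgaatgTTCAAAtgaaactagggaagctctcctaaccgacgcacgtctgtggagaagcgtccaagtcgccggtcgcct
Ccnb2 promoter: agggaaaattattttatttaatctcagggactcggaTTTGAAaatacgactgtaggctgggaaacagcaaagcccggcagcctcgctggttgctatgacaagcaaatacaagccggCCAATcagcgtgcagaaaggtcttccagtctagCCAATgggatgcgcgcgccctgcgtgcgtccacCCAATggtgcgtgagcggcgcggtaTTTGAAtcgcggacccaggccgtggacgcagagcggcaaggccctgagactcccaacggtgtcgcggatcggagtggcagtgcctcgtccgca
Cdk1 promoter: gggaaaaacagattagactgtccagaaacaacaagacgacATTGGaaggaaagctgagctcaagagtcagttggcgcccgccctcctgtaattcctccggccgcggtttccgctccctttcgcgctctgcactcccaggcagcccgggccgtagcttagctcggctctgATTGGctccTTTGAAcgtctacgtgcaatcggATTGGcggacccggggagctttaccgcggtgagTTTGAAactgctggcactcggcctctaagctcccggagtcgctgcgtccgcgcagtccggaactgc
Mcm6 promoter: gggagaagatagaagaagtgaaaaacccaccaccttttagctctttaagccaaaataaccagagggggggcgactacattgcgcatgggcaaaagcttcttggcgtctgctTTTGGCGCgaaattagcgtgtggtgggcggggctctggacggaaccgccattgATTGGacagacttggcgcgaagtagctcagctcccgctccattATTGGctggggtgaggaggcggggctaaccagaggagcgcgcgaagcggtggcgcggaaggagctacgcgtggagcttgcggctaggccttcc

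TTTGAA was present in the windows of 16 of the 22 tested mitosis genes that had one (72.7%), and of 14 of the 19 called members (73.7%), against 18.1% of all 27457 promoter windows and 12.4% of the tested genes' windows. Of the windows of the 22 S phase genes that had one, 1 held it. CCAAT was found in 65.9% of the windows of genes that fell and in 37.7% of all windows. The E2F letters were found in 6 of the 22 windows of tested S phase genes (27.3%), 4 of them among the 10 windows of called members, against 0.521% of all windows and 0.806% of those of the tested genes. In the printed windows, CHR starts 22 bases before the start of Top2a, at 43 and 214 before that of Ccnb2, and at 16 and 72 before that of Cdk1, while the E2F match of Mcm6 starts 139 bases before. A match is a description of letters in a window and not of a bound site.

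The genes that fell were also set against sham on each day. These comparisons share arrays with the main one, so their values are only set side by side. Contralateral day 3 differed from sham in 150 genes (1.28% of those tested), 135 higher (1.16%) and 15 lower (0.128%), with 61 to 207 called when 1 array was left out. Contralateral day 14 differed from sham in 1 gene (0.00857%) by limma's adjusted p, with 816 genes at an unadjusted p under 0.05. The median change against sham of the 108 genes that fell was 0.67 on day 3, over a range of 0.08 (C1qc) to 2.21 (Top2a). On day 14 their median against sham was -0.02, over a range of -0.34 (Oplah) to 0.43 (Ezh2). For Top2a the day 14 difference from sham was -0.21, with a 95% interval of -0.62 to 0.20, and for Mcm6 it was 0.21, with an interval of -0.08 to 0.50. Of the 108 genes, 2 had an interval above 0, among them Ezh2 (0.16 to 0.70), and 5 had one below 0, among them Oplah (-0.57 to -0.11), C1qc (-0.47 to -0.11) and Plk1 (-0.56 to -0.02), and none was called there. A call that was missed does not show that day 14 and sham were alike.

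The mean level of the mitosis list was 4.65 to 4.73 on the day 14 arrays, 5.37 to 5.77 on the day 3 arrays and 4.68 to 4.73 on the sham arrays. Day 3 replicate 2 gave the lowest day 3 value. For the S phase list the means were 5.43 to 5.47, 5.80 to 6.0 and 5.42 to 5.45 in the same order. In cells pooled from a hemisphere, fewer cycling cells and less of these RNAs in each cell cannot be told apart.

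The gene called against sham on day 14 was Gpnmb, a glycoprotein of phagocytic and lipid-laden macrophages. It read 8.39, 8.63 and 8.02 on the day 14 arrays, 8.23, 7.40 and 7.80 on the day 3 arrays, and 6.94, 6.57 and 7.11 on the sham arrays. The 2 days overlapped, and every stroke array was above every sham array. The day 14 difference from sham was 1.47 ± 0.21 (SE, limma adjusted p = 0.0018) and that between day 14 and day 3 was 0.53 ± 0.21 (adjusted p = 0.35). No gene was called on day 14 against sham without sham replicate 2 or without day 14 replicate 2.

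Among the sterol synthesis genes, the called members all rose. Of 24 listed genes 19 were tested, 5 rose, none fell and 14 were not called, with a median of 0.28 and values of -0.07 to 1.19. With 1 array left out, 1 to 4 of the 19 were called higher, and the median stayed between 0.23 and 0.36. Idi1, which interconverts the isoprenoid building blocks, read 8.05, 8.37 and 8.26 on day 14, 7.11, 7.09 and 6.91 on day 3, and 7.86, 7.41 and 7.51 in sham. All day 14 arrays lay above all day 3 and sham arrays. The change was 1.19 ± 0.21 (SE, limma adjusted p = 0.0011), a day 14 signal of 2.29 times that on day 3. Msmo1, a demethylating enzyme of late sterol synthesis, read 8.59, 8.66 and 8.87 on day 14 and 7.92, 7.89 and 7.65 on day 3, and it changed by 0.89 ± 0.19. Fdps, which makes farnesyl diphosphate, changed by 0.54 ± 0.13, the desaturase Sc5d by 0.51 ± 0.13 and Insig1, which retains SREBP in the endoplasmic reticulum, by 0.49 ± 0.11. Idi1 was called in all 18 alternatives, whereas Msmo1 lost the call in 2, Fdps and Insig1 in 5 and Sc5d in 8. Cyp51 (0.52), Sqle (0.50) and Fdft1 (0.37) were positive and not called, while Lss, Ebp, Mvk, Dhcr7, Pmvk and Hsd17b7 lay between -0.07 and 0.06. The mean level of the list was 7.03 to 7.27 on day 14, 6.82 to 6.88 on day 3 and 7.06 to 7.19 in sham, so day 3 was the low group and day 14 overlapped sham. Idi1 on day 14 was above sham by 0.63, with a 95% interval of 0.20 to 1.06, and was not called there (adjusted p = 0.48).

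The promoter of Fdps, at chr2:176804767-176805066 on the minus strand of GRCr8, is shown as an example of the sterol group, with CCAAT in capitals in either orientation.
Fdps promoter: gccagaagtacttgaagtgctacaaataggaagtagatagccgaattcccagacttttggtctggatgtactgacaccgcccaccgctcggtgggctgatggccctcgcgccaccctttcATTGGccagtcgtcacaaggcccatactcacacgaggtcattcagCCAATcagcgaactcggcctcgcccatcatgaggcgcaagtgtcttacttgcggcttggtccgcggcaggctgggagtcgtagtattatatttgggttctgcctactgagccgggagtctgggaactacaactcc
CCAAT was in the windows of 13 of the 15 tested sterol genes that had one (86.7%), called or not, and of all 5 called members, against 37.7% of all windows. The sterol response core was in none of the 15 windows of the tested sterol genes and in 1.13% of all windows, which says only that these letters were not found there.

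Beyond the sterol group, 11 genes rose. C3, the central complement component, read 10.65, 10.64 and 10.71 on day 14, 10.22, 9.98 and 9.96 on day 3, and 10.63, 10.43 and 10.66 in sham. The day 14 arrays overlapped sham and were all above day 3. Its change was 0.61 ± 0.10 (SE, limma adjusted p = 0.00028), and on day 3 it was below sham by 0.52 (adjusted p = 0.0022). Lag3, an inhibitory receptor for class II molecules best known from T cells, read 6.28, 6.42 and 6.48 on day 14 against 5.67, 5.79 and 5.72 on day 3, a change of 0.67 ± 0.14. Slc10a1, a bile acid transporter of the liver, changed by 0.82 ± 0.16 with overlapping arrays, as day 3 replicate 2 at 6.74 was above day 14 replicate 1 at 6.72. Arrdc3, an arrestin-like adaptor, changed by 0.61 ± 0.13 and Odc1, the first enzyme of polyamine synthesis, by 0.56 ± 0.14. The thioesterase Acot13 changed by 0.55 ± 0.14 and the histone gene H3f3b, whose reading is uncertain because histone genes have near-identical copies, by 0.32 ± 0.08. Zmym6 (0.54), Mapk1ip1 (0.38), Lpar6 (0.36), a lysophosphatidic acid receptor, and Tp53rkb (0.35) were the others. Of the 18 alternatives, Zmym6 lost its call in 9 and stood at 0.15 with its probe sets averaged, while Mapk1ip1 lost it in 10, Lpar6 in 7, Tp53rkb and H3f3b in 8, Acot13 in 10, Odc1 in 11, Arrdc3 in 5 and Lag3 in 4. Slc10a1 lost its call in 2, and C3 was called in all 18. The median difference from sham of all 16 genes that rose was -0.33 on day 3, with 3 called. On day 14 it was 0.2, with none called. The 95% interval on day 14 lay above 0 for 6 of the 16 (Acot13, H3f3b, Idi1, Lag3, Slc10a1 and Zmym6) and below 0 for none. Choosing genes by their rise favours day 14 values above sham, because the day 14 arrays enter both differences.

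**Figure D2:**
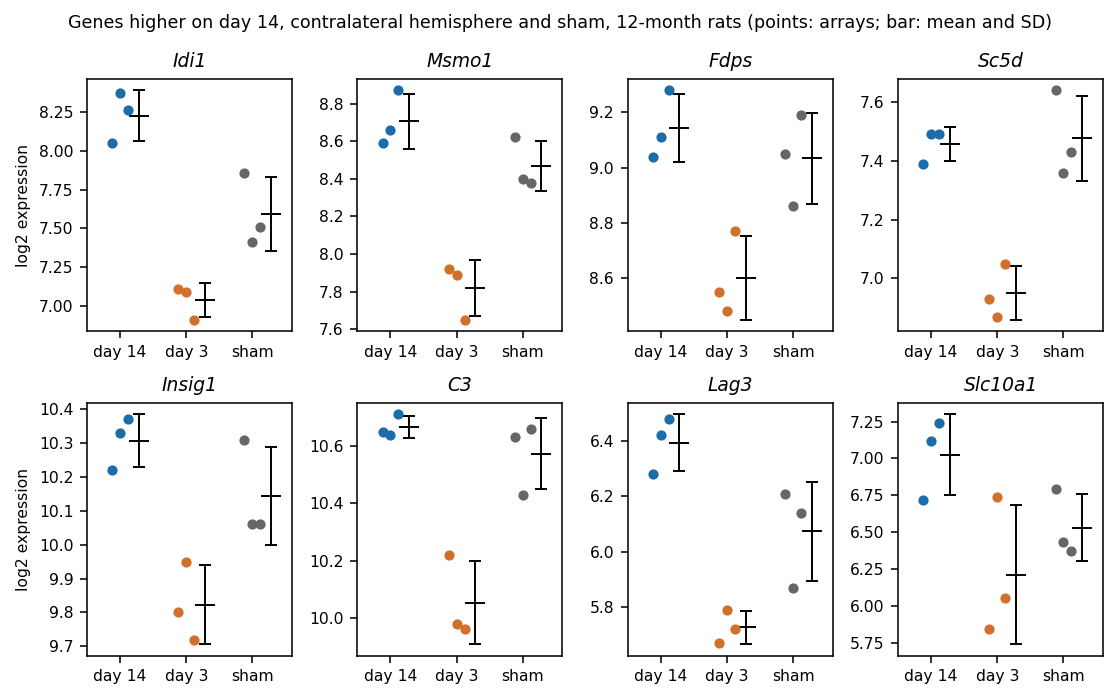
Log2 expression (vertical axes) of 8 genes called higher on day 14 than on day 3 in the contralateral hemisphere, on the day 14, day 3 and sham arrays of 12-month rats. Points are single arrays and bars the mean and SD of 3 arrays; the day 14 points lie above all day 3 points in each panel except that of Slc10a1.

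The genes that mark resting microglia showed no call. None of 24 homeostatic genes passed, with a median of -0.02. Over all genes tested 1.06% were called. Lists of this size with no call, here and below, therefore do not stand apart from the genes as a whole. P2ry12, the purinergic receptor that steers microglial processes, read 11.96, 11.91 and 11.89 on day 14 and 11.91, 11.88 and 11.88 on day 3, a difference of 0.03 ± 0.11 (adjusted p = 0.97). Tmem119 (-0.07), P2ry13 (0.06), the fractalkine receptor Cx3cr1 (-0.05) and the growth factor receptor Csf1r (0.04) were not called either. The list members with the smallest p were Olfml3 (-0.32 ± 0.15) and Gpr84 (-0.10 ± 0.10). Of 26 genes of the disease-associated state, 1 was called, Lag3, and the median was 0.02. The mean level of that list was 7.77 to 7.83 on day 14, 7.62 to 7.89 on day 3 and 7.46 to 7.55 in sham. The contralateral arrays of both days thus all lay above the sham arrays. Set against sham, 24 of the 26 were positive on day 14 (1 called) and 21 on day 3 (2 called). Over all 11675 genes, 5744 were positive on day 14 and 5980 on day 3. Of that list, Cd68 (0.36 ± 0.12), Spp1 (-0.40 ± 0.28), Lgals3 (-0.07 ± 0.23), Apoe (-0.06 ± 0.09) and Igf1 (0.02 ± 0.13) were not called, and Lgals3 was above sham on day 3 by 1.07 (adjusted p = 0.0096).

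None of 32 interferon-response genes was called, with a median of 0.10 and the smallest p for Cxcl10 (0.46 ± 0.15) and Usp18 (0.44 ± 0.18), while Irf7 (0.18) and Mx1 (-0.09) were not called. The 10 class II genes had no call and a median of 0.13. Cd74, the invariant chain, read 11.32, 11.13 and 10.94 on day 14 and 10.02, 9.60 and 10.79 on day 3. These arrays did not overlap, but the spread among the day 3 arrays was wide. The difference, 1.00 ± 0.43, was not called (adjusted p = 0.42). Cd74 was called in 2 of 18 alternatives, with only the 15 arrays of 12-month rats and with the replicate number as a block. RT1-DMa was at -0.28 ± 0.11. The 9 class I and peptide-loading genes had no call and a median of -0.08, with RT1-S3 (0.27) and Psmb8 (-0.16) at the smallest p. Among 12 complement genes C3 rose and C1qc fell, and among 28 chemokines and cytokines Lif fell. Il1b (0.04), Il6 (-0.15) and Tnf (0.19) were not called. Of 21 phagocytic and pattern receptors, Cd14 fell, and Axl, a receptor for apoptotic cells, was at 0.54 ± 0.18 (adjusted p = 0.23).

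The 35 genes of oxidative phosphorylation had no call, although 32 of them had a value below 0, with a median of -0.15. Their mean level was 9.08 to 9.14 on day 14, 9.13 to 9.35 on day 3 and 8.97 to 9.09 in sham. The ranges of the 2 days overlapped. Compared with sham, all 35 were positive on day 3, 3 of them called, where 1.16% of all genes tested were called higher. On day 14, 28 of the 35 were positive against sham and none was called. Cox6a1 (-0.28 ± 0.08, adjusted p = 0.087) and Cox7b (-0.30 ± 0.11) had the smallest p. No gene was called among 31 immediate early and NF-kB feedback genes (median 0.09), whose smallest p were those of Klf4 (0.52) and Ier5 (0.28), with Fos at 0.43 and Egr1 at 0.10. The same held for 32 lysosomal genes (median -0.03, Gla at 0.34 and Cd68 at 0.36) and for 23 glycolytic genes (median -0.07, Ldhb at -0.31 and Bpgm at -0.17). It held for 31 ribosomal proteins (median 0.01, Rpl30 at 0.13 and Rps27 at 0.18) and for 26 chaperones and genes of the unfolded protein response (median 0.04, Ddit3 at 0.41 and Atf4 at 0.25). It also held for 15 clock genes (median 0.02, Cry1 at -0.27 and Bhlhe40 at 0.21, with Per2 at -0.08 and Dbp at 0.02). No call was made among 18 hypoxia genes (median 0.02, Egln3 at -0.32 and P4ha1 at 0.23) or 18 genes of iron handling and Nrf2 (median -0.02, Hamp at -0.28 and Hmox1 at 0.31). The 19 matrix genes (median -0.02, Col4a1 at -0.20 and Col1a1 at 0.14) and the 17 TGF-beta genes (median -0.06, Inhba at -0.13 and Tgfb3 at -0.09) had none either.

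The glucocorticoid list had no call among 18 genes and a median of 0.00, but 1 of its members varied widely. Fkbp5, a chaperone induced by glucocorticoids, read 7.04, 5.79 and 5.53 on day 14, 7.16, 7.03 and 7.00 on day 3, and 4.76, 5.59 and 5.85 in sham. Day 14 replicate 1, the array with the different first code field, lay within the day 3 range and the other day 14 arrays within the sham range. The change was -0.94 ± 0.39 (adjusted p = 0.37), and on day 3 Fkbp5 was above sham by 1.67 (adjusted p = 0.021). Angptl4 was at -0.35 ± 0.13.

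**Figure D3:**
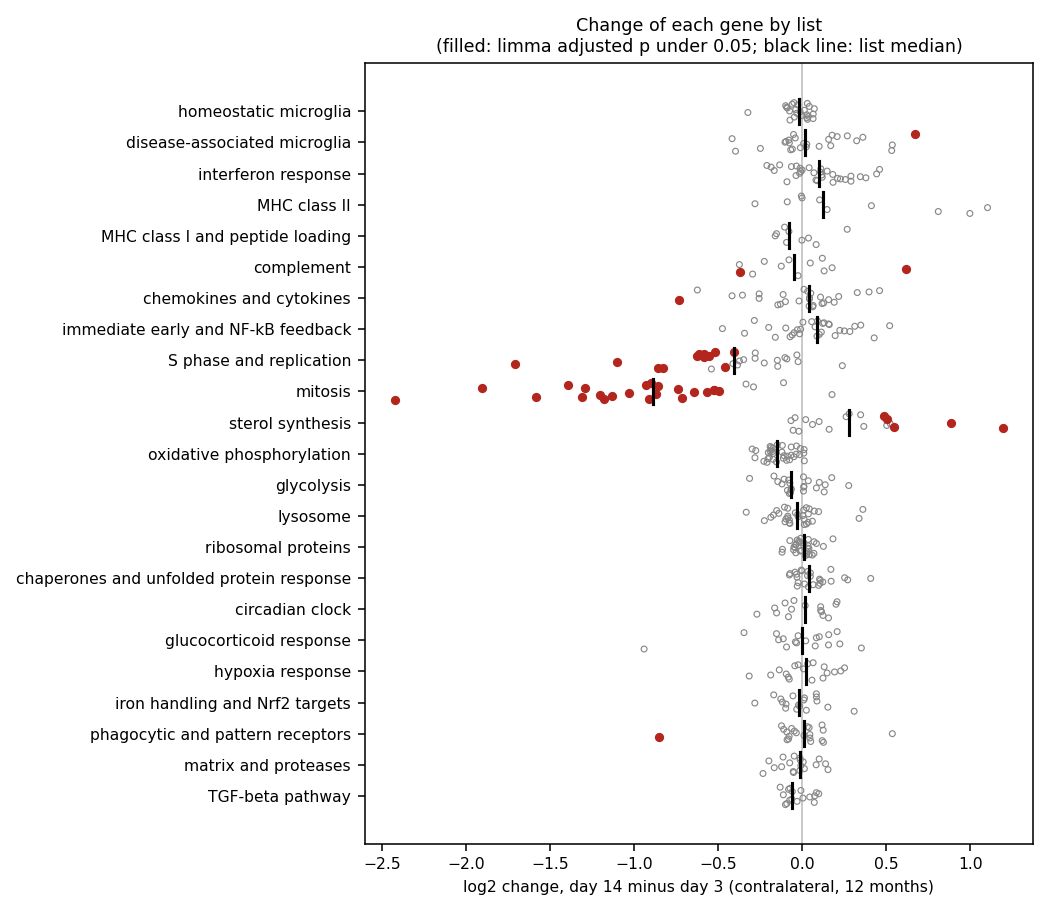
Log2 change on day 14 against day 3 (horizontal axis) of each tested gene of 23 lists (vertical axis) in the contralateral hemisphere at 12 months. Filled points are genes called at a limma adjusted p under 0.05, open points are genes not called and black lines are list medians; filled points gather in the mitosis, S phase and sterol rows.

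Markers of other cell types were measured beside these changes. Of 116 marker genes tested over 13 cell types, 1 was called, Cspg4, which is close to the 1.06% called over all genes. Their median was 0.02. The monocyte and macrophage list had no call among 15 genes (median 0.02), and its mean level was 5.71 to 5.78 on day 14, 5.64 to 5.80 on day 3 and 5.57 to 5.63 in sham. Its smallest p were those of Vim (-0.27 ± 0.17) and S100a4 (-0.23 ± 0.17). The 9 border macrophage genes had a median of -0.02 and a mean level of 5.78 to 6.18 on day 14 and 5.98 to 6.27 on day 3, with Folr2 at -0.91 ± 0.25 (adjusted p = 0.080) and F13a1 at -0.15. The 16 neutrophil genes had a median of 0.17 and a mean level of 5.38 to 5.71 on day 14 and 5.35 to 5.41 on day 3, with Itgal at -0.29 and S100a9 at 0.86 ± 0.52. The part of these cells in the results was not tested.

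The remaining markers also had no call apart from Cspg4. The medians were 0.04 for 16 genes of T and NK cells (Gzmb at 0.30, Lck at 0.18), -0.05 for 4 of B cells (Fcrla at 0.23, Cd22 at -0.11) and 0.03 for 8 of oligodendrocytes (Opalin at 0.13, Mobp at 0.21). They were -0.08 for 5 of oligodendrocyte precursors, 0.02 for 9 of astrocytes (Aldoc at 0.28, Fgfr3 at 0.12) and 0.06 for 9 of neurons (Gad1 at 0.13, Stmn2 at 0.09). The 9 endothelial genes had a median of 0.06 (Abcb1a at 0.28, Pecam1 at 0.15) and the 10 of pericytes and smooth muscle one of 0.00 (Des at -0.18, Notch3 at 0.14). Those of ependyma and choroid plexus (4 genes, Folr1 at -0.10, Foxj1 at 0.04) and of erythrocytes (3 genes, Hbb at 0.37, Bpgm at -0.17) had medians of -0.02 and -0.08. Of the defining markers of these cells, Ly6c, Mmp8, Cd3g, Ms4a1, Syt1, Slco1a4, Ttr and Rgs5 lay at or below the 30th percentile on all 6 arrays. Other defining markers of the cell types listed lay above it on all 6, among them S100a8, S100a9, Vim, Lyve1, Pf4, Mbp, Pecam1, Acta2, Foxj1 and Rbfox3. S100a9 averaged 8.66 on day 14 and 7.80 on day 3, and S100a8 averaged 8.12 on day 14 and 7.47 on day 3.

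**Figure D4:**
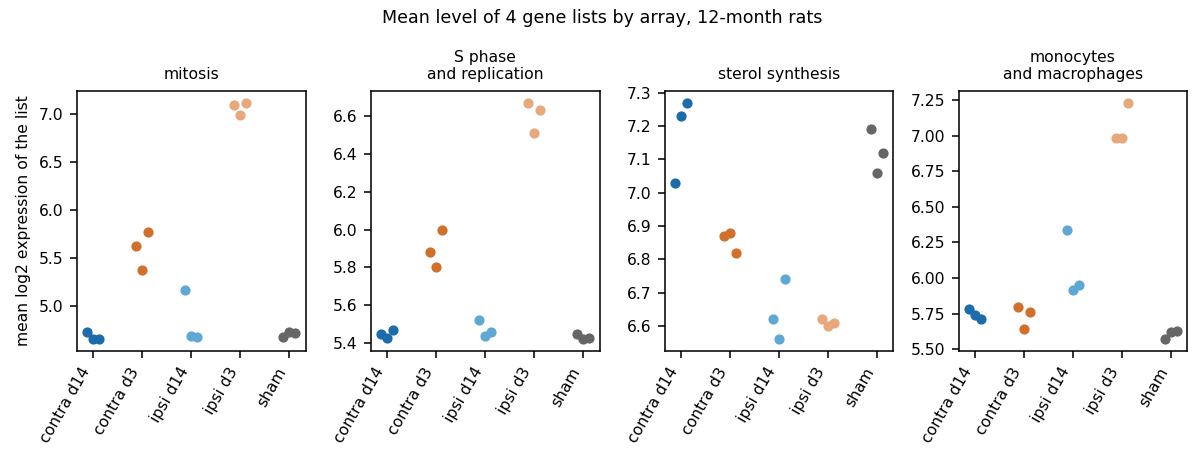
Mean log2 expression (vertical axes) of the mitosis, S phase, sterol synthesis and monocyte and macrophage lists on each contralateral day 14 and day 3, ipsilateral day 14 and day 3, and sham array of 12-month rats (contra and ipsi, d14 and d3 on the horizontal axes). Each point is 1 array; the mitosis and S phase lists are lower on day 14 than on day 3 in both hemispheres, and the sterol list is higher on the contralateral day 14 arrays than on the contralateral day 3 arrays.

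In the ipsilateral hemisphere of the same animals, most of the genes that fell contralaterally fell further. There 2404 genes were called between day 14 and day 3 (20.6%), 762 higher (6.53%) and 1642 lower (14.1%), and 102 of the 108 genes that fell contralaterally fell ipsilaterally too. The difference between the hemispheres was tested itself, as the contralateral change minus the ipsilateral change, and 623 genes were called (5.34%), 419 above 0 (3.59%) and 204 below 0 (1.75%). Of the 108 contralateral falls, 81 were called in that test, 79 of them with the larger fall on the ipsilateral side and 2, the adhesion protein Tes and the phosphatase Ppm1h, with the lower value on the contralateral side. Tes was at -0.52 contralaterally and -0.05 ipsilaterally, and Ppm1h at -0.37 and 0.09. Ppm1h lost this call with the animal as a block. The 108 genes were chosen by the contralateral change, which also enters this test. Of the 26 mitosis genes 23 were called above 0, and of the 27 S phase genes 14 were. Ccnb1, the cyclin of mitotic entry, changed by -0.91 on the contralateral side and by -3.48 on the ipsilateral side. The difference was 2.57 ± 0.28 (SE, limma adjusted p = 3.7e-07), and the contralateral call of Ccnb1 was lost in 5 of 18 alternatives. Rrm2 changed by -1.71 and by -4.04 in the same order, a difference of 2.33 ± 0.26. Top2a differed by 1.03 ± 0.28 between the hemispheres (adjusted p = 0.025).

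Ipsilateral day 14 replicate 1 stood apart from the other ipsilateral day 14 arrays, with a mitosis list mean of 5.17 against 4.69 and 4.67. Without it, 79 falls were called with the larger ipsilateral change, 1 with the larger contralateral change, as Tes lost its call, and 23 mitosis genes were called above 0. The ipsilateral arrays also carried more of the monocyte and macrophage list, at 5.92 to 6.34 on day 14 and 6.98 to 7.23 on day 3, and its part in the difference was not tested.

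The genes that rose went different ways. C3 rose by 0.61 on the contralateral side and by 2.01 on the ipsilateral side, and Lag3 by 0.67 and by 2.45, with differences of -1.40 ± 0.14 and -1.78 ± 0.20. Sc5d changed by 0.51 contralaterally and was at -0.31 ipsilaterally (difference 0.81 ± 0.18, adjusted p = 0.0050). Acot13 changed by 0.55 contralaterally and was at -0.16 ipsilaterally (difference 0.71 ± 0.20, adjusted p = 0.027). For Idi1 the difference, 0.66 ± 0.30, was not called (adjusted p = 0.25). Hbegf, at -0.76 contralaterally and -0.03 ipsilaterally, and Lif, at -0.73 and 0.02, had differences that were not called (adjusted p = 0.074 and 0.075).

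**Figure D5:**
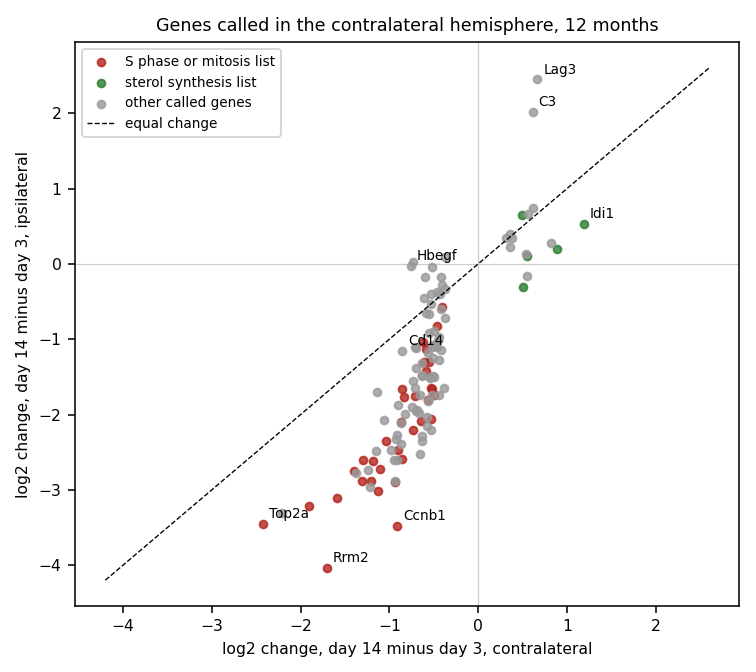
Change on day 14 against day 3 in the contralateral hemisphere (horizontal axis, log2) and in the ipsilateral hemisphere (vertical axis, log2) for the 124 genes called contralaterally at 12 months. Each point is a gene, coloured by list, and the dashed line marks equal change; most genes that fell lie below it, and C3 and Lag3 lie above it.

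At 3 months of age, the contralateral change between the days was less negative than at 12 months for 42 of the 108 genes that fell there. In those rats the 2 days' arrays carried different numbers at the end of the sample code, which cannot be told apart from the day, and the standard deviation over an array was 1.79 to 1.87, against 1.94 to 2.01 on the 12-month contralateral arrays. The comparison at 3 months called 1185 genes (10.1%), 970 higher (8.31%) and 215 lower (1.84%). It called 559 without day 3 replicate 2 and 752 without day 14 replicate 3. The difference between the ages, 12 months minus 3 months, called 348 genes (2.98%), 38 above 0 (0.325%) and 310 below 0 (2.66%), and 131 to 421 when 1 array was left out, while the median difference of all genes was -0.07. The 42 genes called there among the 108 all had a difference below 0. Choosing genes by their fall at 12 months favours differences below 0, because that change enters the difference. Their shared direction is therefore not separate support for a difference between the ages. Top2a changed by -2.42 at 12 months and by -0.95 at 3 months, a difference of -1.47 (limma adjusted p = 0.0056). Stmn1 changed by -2.21 and by -0.51, a difference of -1.70 (adjusted p = 0.010). At 3 months 5 of the 26 mitosis genes and none of the 27 S phase genes were called lower, and 1 S phase gene was called higher. In the sterol list 7 of 19 genes were called higher at 3 months, and no member was called in the difference between the ages. Idi1 changed by 1.19 at 12 months and by 1.20 at 3 months, and C3 by 0.61 and by 0.79.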

How the data were processed

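The table the authors deposited holds log2 values for 29214 probe sets and 30 arrays (10 groups of 3). Affymetrix Expression Console and RMA, without versions, are named in the submitters' processing notes; whether all arrays were summarised together is not stated there. Probe sets were named from the platform annotation, with symbols updated through a RefSeq table of GRCr8. Of these, 15310 had 1 gene symbol, 323 several and 13581 none, and the last 2 kinds were left out. A probe set was kept if above its array's 30th percentile on at least 3 arrays (22343), and each gene was tested on its brightest one, which left 11675 genes.

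Differences of group means were tested, two-sided, with limma 3.58.1 in R 4.3.3 (lmFit and eBayes, 1 model over 30 arrays, 20 residual and 8.8 prior degrees of freedom), with Benjamini-Hochberg adjustment over all genes and a threshold of 0.05. Every adjusted p-value given comes from limma. Where all 3 arrays of a group lay at or below the percentile, "at least" gives the change with that group at the higher of value and percentile, a step added after the data were seen. The number of arrays limits the precision. In simulated data on this comparison with 11675 genes, 76% of changes of 0.5, 98% of 1 and 100% of 1.5 and of 2 (log2) were recovered. There were 6 false calls among 193. The simulated noise was normal and independent between genes and arrays, with each gene's fitted spread, and the other groups did not differ. Effects shared by the genes of an array were left out, so these rates need not hold for the real arrays.

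Named genes were the 15 largest rises and falls, up to 4 called members of each list or else its members of smallest p, a fixed panel, some of which is not reported here, and the 5 largest differences each way in the tests between hemispheres and ages. The members and lists were chosen with earlier results of these data known. Same-numbered arrays of the 2 days came from different animals, and their deviations from the group means correlated at 0.034, -0.03 and 0.007, so the days were not paired. The 2 hemispheres of an animal share its number, with correlations of 0.152, -0.079 and 0.211 on day 14 and 0.047, 0.097 and 0.09 on day 3. Alternatives varied the arrays, filter, probe sets, scaling, variance model and block.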

Additional observations from a re-analysis of the deposited data

Results flagged for a closer look

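The contralateral change between day 14 and day 3 differed from the ipsilateral change in 623 genes, and the 12-month from the 3-month contralateral change in 348 genes, by a limma test of the difference itself (adjusted p under 0.05). Of the 121 named genes, 41 differed between the hemispheres and 21 between the ages.

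Contralateral minus ipsilateral, as fitted log2 differences, the genes that fell contralaterally and fell further ipsilaterally were Top2a (1.03), Tpx2 (1.31), Rrm2 (2.33), Cdk1 (1.51), Ndc80 (1.36), Pttg1 (1.41), Plk1 (1.57), Prc1 (1.31), Plp2 (1.5), Pclaf (1.75), Bub1b (1.68), Ccnb2 (1.44), Pbk (1.34), Gins1 (1.62), Mcm6 (0.80), Mcm5 (0.94), Ccnb1 (2.57), Nuf2 (1.96), Kif4a (1.93) and Bub1 (1.89). For Cdk1, Bub1b, Pbk, Nuf2, Kif4a and Bub1 every contralateral day 14 array lay at or below its 30th percentile, so these fitted sizes are not measured ones. Tes (-0.47) and Ppm1h (-0.46) had the lower value contralaterally, but Ppm1h lost the call with the animal as a block and Tes lost it without ipsilateral day 14 replicate 1. Among the genes that rose, the difference was positive for Acot13 (0.71) and Sc5d (0.81) and negative for Lag3 (-1.78) and C3 (-1.40). Genes with no contralateral call also differed, above 0 for Cox7b (0.51), S100a4 (1.31), Folr2 (1.16), S100a9 (2.87) and Spp1 (2.42) and below 0 for Cd68 (-0.57), Bhlhe40 (-0.77), Egln3 (-0.78), Hamp (-0.49), Axl (-2.30), Cd22 (-1.48), Apoe (-0.69), Igf1 (-1.27), Irf7 (-1.11) and Mx1 (-1.10).

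At 12 minus 3 months, genes that fell at 12 months had differences below 0, namely Top2a (-1.47), Stmn1 (-1.70), Tpx2 (-1.18), Rrm2 (-1.33), Cdk1 (-1.27), Ndc80 (-1.01), Pttg1 (-0.97), Plk1 (-0.89), Prc1 (-1.01), Pclaf (-1.01), Bub1b (-1.01), Pbk (-0.92), Lif (-0.92), Gins1 (-1.19), Mcm6 (-0.82), Mcm5 (-0.79), Ppm1h (-0.52) and C2h4orf46 (-1.23). The fitted sizes for Cdk1, Bub1b and Pbk rest on the same dim day 14 arrays. The difference was positive for Slc10a1 (1.05) and H3f3b (0.55), which rose at 12 months, and negative for Egln3 (-0.69), which was not called contralaterally at 12 months. The genes called at 12 months were chosen by a change that enters this difference, which favours the directions seen in them. The days carry different code numbers at 3 months, and that part of the difference cannot be told apart from the day. Groups of 3 arrays were too small for a search for single outlying samples.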

How the results depend on the processing

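For day 14 against day 3, array weights gave 278 calls (81 higher, 197 lower) against 124 (16 and 108), the 15 arrays of 12-month rats gave 35 higher, and centring on array medians gave 8 higher. The 6 arrays alone gave 93 calls. Leaving out 1 array gave 58 to 131 calls, with 5 to 14 higher and 53 to 119 lower. The replicate block, which pairs different animals, gave 105 for this contrast. It gave 230 for day 3 against sham, 3 for day 14 against sham, 103 for the 3-month contrast and 25 for the age difference, and the animal as a block gave 766 for the hemisphere difference, against 150, 1, 1185, 348 and 623 in the main model.

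With 1 array left out, calls ran from 61 to 207 for day 3 against sham, 0 to 1 for day 14 against sham, 1720 to 2211 for the ipsilateral contrast, 412 to 649 for the hemisphere difference, 559 to 1129 for the 3-month contrast and 131 to 421 for the age difference. The hemisphere difference was lowest without contralateral day 3 replicate 2. The 3-month contrast had 559 calls without day 3 replicate 2 and 752 without day 14 replicate 3. The age difference had 159 without 3-month day 3 replicate 2, and 160, 147 and 131 without 12-month day 3 replicates 1 and 3 and day 14 replicate 1. Day 3 against sham had 72 and 61 without day 3 replicates 1 and 3, and 89 and 81 without sham replicates 1 and 2. The causes were not tested.

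All 45 named genes called in the main contrast kept their direction in the 18 alternatives run, and 20 were called in all of them. The calls of Odc1, Ppm1h, Acot13 and Mapk1ip1 were lost in 10 or 11. Of the 76 named genes not called, Folr2, Cox6a1 and Ddit3 gained a call in 4 alternatives each, and Klf4 and Gla in 3. Cd74 and Cxcl10 did so in 2, and Fos, Ier5, Atf4 and Axl in 1. Hamp and Ppm1h lost their hemisphere call with the animal as a block, and Cd68, Cox7b and Tes without ipsilateral day 14 replicate 1.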
